A study of Rattus norvegicus with 38 samples.

Results

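Leukocyte integrins and the endothelial proteins that they bind were followed through a rat model of acute cardiac rejection (ACR). The group holds 9 genes, taken by symbol: the integrin chains Itgal, Itgam, Itgb2, Itgb1, Itga4 and Itgb7 and the endothelial adhesion proteins Icam1, Vcam1 and Selp. Every probeset annotated to these symbols, under a current or former name, was kept. The heart array carried 8 such probesets for 6 of the genes, among 15866 probesets in all, and the array used for peripheral blood mononuclear cells (PBMC) carried 10 for 8 genes, among 31042. Itgal and Itgb2 were measured in PBMC alone, and Itga4 had a probeset on neither array, so no value is given for it. Each probeset used had 1 gene symbol. In RefSeq's GRCr8 assembly, whose coordinates are used here for location only, the alpha chains Itgal (chr1:191348424-191386228) and Itgam (chr1:192089496-192139947) lie on the same chromosome. The beta chains Itgb7 (chr7:135225962-135243522), Itgb1 (chr19:73602277-73650271) and Itgb2 (chr20:11061009-11097242) and the ligands Vcam1 (chr2:206723050-206742783), Icam1 (chr8:27829688-27841618) and Selp (chr13:79009379-79044994) lie on others.

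Hearts of Dark Agouti (DA) rats were placed in the abdomen of Brown Norway (BN) rats as allografts or of DA rats as isografts, and tissue was taken on post-transplant day 6. Heart tissue of 18 samples was measured, 1 array each: 5 DA allografts, 4 DA isografts, the 5 native BN hearts of the allograft recipients (A3 to A7) and the 4 native DA hearts of the isograft recipients (I9, I11, I12 and I13). PBMC came from 20 rats: 3 BN and 3 DA rats that had no transplant (untransplanted) and, among recipients, 5 BN rats with an allograft (QR3 to QR7) and 9 DA rats with an isograft. All heart samples thus came from transplanted rats, and no heart of an untransplanted rat was measured. Donors were DA throughout, native BN hearts all came from rats with a rejecting graft, and among recipients strain and graft type coincide. Strain and the recipient's rejection therefore cannot be told apart in native hearts or in the blood of recipients. PBMC are blood lymphocytes and monocytes, here isolated on a density gradient. Transplanted and untransplanted rats were run as separate batches for PBMC, so their levels were not tested against each other. The difference between the BN against DA effects of both batches was tested. It is free of the batch only where the batch effect is equal in both strains. The p-values measure the spread between hearts or blood samples of a group, each from another rat, while a graft and the native heart of the same number shared a recipient. By the paper, hearts and recipient PBMC came from the same 5 allogeneic and 9 isogeneic transplants, so heart and blood samples share rats.

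Integrins are receptors of 2 chains, alpha and beta, that let leukocytes stop on the vessel wall and move into tissue. P-selectin (Selp), stored in endothelial cells and platelets, lets leukocytes roll. The beta-2 chain (Itgb2) with alpha-L (Itgal) forms LFA-1 of lymphocytes, with alpha-M (Itgam) it forms Mac-1 of monocytes and neutrophils, and both bind ICAM-1 (Icam1). The beta-1 chain (Itgb1) with alpha-4 (Itga4) forms VLA-4, which binds VCAM-1 (Vcam1) and fibronectin, and pairs with many other alpha chains on muscle, endothelium and fibroblasts. Beta-7 (Itgb7) with alpha-4 or alpha-E is carried by lymphocytes of gut and other mucosa. ICAM-1 and VCAM-1 are induced on endothelium by inflammatory cytokines, and antibodies against LFA-1 or ICAM-1 prolong graft survival in rodents.

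Promoter sequence is shown for the 3 genes on which the heart results turn most, the ligands Icam1 and Vcam1 and the chain Itgam. RefSeq windows of 300 bases (250 before and 50 after the start, assembly GRCr8) were given for 6 of the 9 genes. They were searched on both strands for short letter patterns named after factors. For kappaB these were a 9-base form (GGAANNNCC) and a 10-base form that opens with GGGA and closes with CC around 4 bases of any kind, which can overlap. For AP-1 the letters were TGANTCA. The interferon response element repeated GAAA after 2 bases of any kind. For the myeloid factor PU.1 the letters were GAGGAA. For the general factor Sp1 they were GGGCGG. For the endothelial and blood factors of the GATA family they were AGATAA. Printed 5′ to 3′ on the gene's strand are the bases of the window that precede the annotated gene, with matches to kappaB (Icam1, Vcam1) or to PU.1 read on that strand (Itgam) in capitals.
Icam1 (chr8:27829595-27829687, plus strand): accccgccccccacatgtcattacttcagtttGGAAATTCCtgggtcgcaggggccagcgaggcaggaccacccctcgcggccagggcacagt
Vcam1 (chr2:206742784-206743033, minus strand): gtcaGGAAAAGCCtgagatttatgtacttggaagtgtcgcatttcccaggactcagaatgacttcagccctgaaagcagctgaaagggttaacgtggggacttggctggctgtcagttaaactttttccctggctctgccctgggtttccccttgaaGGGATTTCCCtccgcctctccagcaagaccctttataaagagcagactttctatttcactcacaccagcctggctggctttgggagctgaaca
Itgam (chr1:192089342-192089495, plus strand): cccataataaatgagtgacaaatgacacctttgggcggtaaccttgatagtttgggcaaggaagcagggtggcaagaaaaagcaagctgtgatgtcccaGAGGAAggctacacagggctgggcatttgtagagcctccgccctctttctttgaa
Vcam1 held both kappaB patterns and was the only window of the 6 with the interferon pattern, at positions -46 to -37 from the start. Icam1 held the 9-base form and Itgb7 the 10-base form. PU.1 letters were found for Itgam and Itgb1, and Sp1 letters for Itgam, Itgb7, Icam1 and Itgb1. Of all 33469 windows, 19.3% held the 10-base kappaB form, 18.3% the 9-base form, 3.92% the interferon pattern, 27.6% the PU.1 letters and 33.1% the Sp1 letters, so these matches are common and describe letters, not bound sites. AP-1 (7.33% of windows) and GATA (11.6%) had no match in the 6 windows.

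Values are array signals divided by the median signal of their array, called array medians below, and comparisons are fold changes with the standard error (SE), always on the log2 scale, of limma fitted over all probesets of the array. A gene is represented by its brightest probeset. It passed the test at an adjusted p (Benjamini-Hochberg) of 0.10 or less, and it was called where it also changed 3-fold or more and reached the array median in 50% of either group. In bulk samples, fewer cells of a type and less RNA per cell cannot be told apart. Sums of marker genes describe the samples: the 13 measured heart muscle markers summed to 861 to 1455 array medians in native hearts and isografts and 204 to 505 in allografts. The 10 monocyte and macrophage markers summed to 28.2 to 51.1 in native hearts, 59.0 to 93.8 in isografts and 332 to 548 in allografts. The 11 T cell markers summed to 22.1 to 47.0 in allografts and 5.65 to 8.78 elsewhere in heart. In PBMC all 14 T cell markers lay above the array median. No marker was at 0 in any group.

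The rejection effect compares allografts with isografts, both DA hearts. Of the 6 genes on the heart array, 4 were higher in allografts, 0 were lower and 2 did not pass, beside 20.3% of all probesets that were higher and 21.2% that were lower. Itgam, Icam1 and Selp were called, beside 3.81% of all probesets called higher. The median log2 fold change of the 6 genes was 1.74, and that of all probesets was 0.02. The ligands Icam1 and Selp and the integrin chains Itgam and Itgb7 did not overlap between the groups, while Vcam1 and Itgb1 did. Of all heart probesets, 15.4% had every allograft above every isograft.

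**Figure D1:**
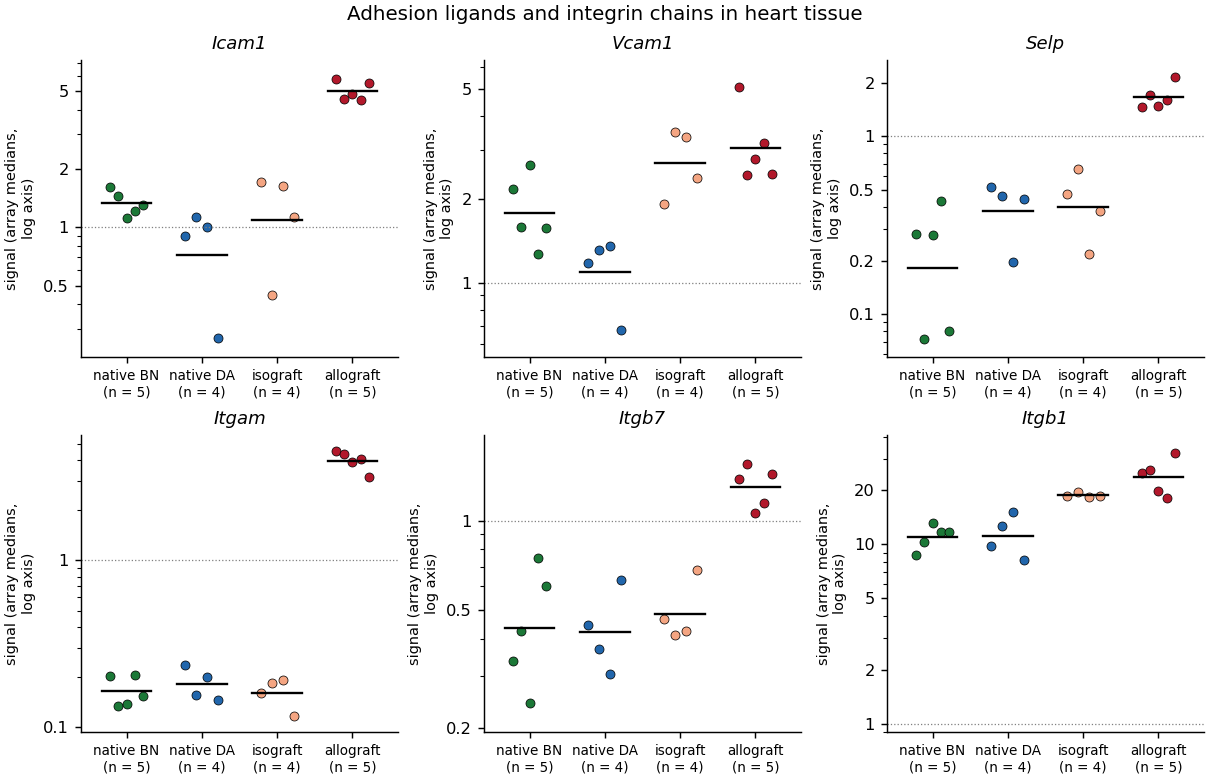
Signal of each gene in each heart sample (array medians, log axis) for native BN hearts, native DA hearts, isografts and allografts. Each point is 1 heart, the bar is the mean on the log scale and the dotted line is the array median. Itgam lay between 3.15 and 4.50 in allografts and at or below 0.236 in every other heart.

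Itgam, the alpha chain of Mac-1, showed the largest change of the 6 genes. The allografts measured 4.50, 4.36, 3.91, 4.03 and 3.15 array medians (A3 to A7). The isografts measured 0.161, 0.185, 0.191 and 0.118 (I9, I11, I12 and I13). Every allograft thus lay far above every isograft, and the fold change was 24.6 (log2 4.62, SE 0.20, adjusted p = 2.14e-10 in limma). Native hearts were as low as isografts, with 0.135 to 0.205 in BN and 0.145 to 0.236 in DA. Monocyte and macrophage markers moved with Itgam, 10 of 10 higher in allografts, as did neutrophil markers, 4 of 4 higher with sums of 6.39 to 30.2 against 1.70 to 3.34 in isografts. Their part in the result was not tested.

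Icam1, the ligand of LFA-1 and Mac-1, was higher in every allograft. The allografts measured 5.79, 4.57, 4.85, 4.53 and 5.52 array medians. The isografts measured 1.70, 0.448, 1.63 and 1.13, so that I11 lay apart below the other isografts. The difference was 4.62-fold (log2 2.21, SE 0.40, adjusted p = 0.000293). The 13 endothelial markers, which include Pecam1 and Vwf, summed to 41.2 to 45.5 in allografts and 34.9 to 39.0 in isografts. Of these markers 5 were higher, 1 was lower and 7 did not pass, with a median log2 fold change of 0.10. Markers of all leukocytes were higher in 7 of 8 and those of monocytes and macrophages in 10 of 10. The part of any of these cells in the Icam1 result was not tested.

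Selp was higher in allografts by its brightest probeset (1391946_at). The allografts measured 1.46, 1.71, 1.47, 1.61 and 2.14 array medians and the isografts 0.473, 0.658, 0.217 and 0.380. No isograft reached the array median and every allograft exceeded it, a 4.15-fold difference (log2 2.05, SE 0.49, adjusted p = 0.00295). The other Selp probeset (1369374_at) did not show this: it lay between 0.0184 and 0.267 in allografts and between 0.182 and 0.342 in isografts (log2 -0.92, SE 0.58, adjusted p = 0.243), all far below the array median. The mean of both probesets did not pass (log2 0.57, adjusted p = 0.282), and the call of the brightest was lost with the signal criterion at the 65th percentile of the array. Platelets carry P-selectin too, and the 4 measured platelet markers summed to 10.5 to 15.7 in allografts and 5.02 to 11.8 in isografts, with 1 of 4 higher. Their part in the result was not tested.

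Itgb7, the beta chain that pairs with alpha-4 and alpha-E, rose by less than the fold criterion. The allografts measured 1.38, 1.55, 1.06, 1.15 and 1.43 array medians and the isografts 0.467, 0.411, 0.426 and 0.679. The groups did not overlap, and the difference was 2.68-fold (log2 1.42, SE 0.29, adjusted p = 0.000986). T cell markers were higher too, 10 of 11. Itgb1 was bright in all hearts and overlapped between grafts: 25.0, 26.2, 19.9, 18.2 and 32.6 in allografts and 18.7, 19.5, 18.3 and 18.6 in isografts. Its fold change was 1.27 (log2 0.34, SE 0.20, adjusted p = 0.201), and its other probeset (1387346_at), at 1.33-fold, passed (log2 0.41, SE 0.16, adjusted p = 0.0609). Itgb1 passed by the brightest probeset as well after quantile normalization (log2 0.58, adjusted p = 0.0440).

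Vcam1, the ligand of VLA-4, did not pass between the grafts. The allografts measured 5.07, 2.44, 2.78, 3.18 and 2.46 array medians and the isografts 1.92, 3.50, 3.33 and 2.38. Allograft A3 was the highest heart, and the other 4 allografts fell within the range of the isografts. The fold change was 1.13 (log2 0.18, SE 0.28, adjusted p = 0.675).

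The surgical effect compares isografts with native DA hearts, both from the same 4 rats. Vcam1 and Itgb1 were higher in isografts, 0 of the 6 genes were lower and none was called, beside 7.15% of all probesets higher, 6.59% lower and 0.908% called. Vcam1 measured 1.17, 1.31, 1.35 and 0.677 array medians in native DA hearts, below the lowest isograft value of 1.92. The difference was 2.48-fold (log2 1.31, SE 0.30, adjusted p = 0.0161). Itgb1 measured 9.74, 12.6, 15.2 and 8.21 in native DA hearts, all below the isografts. Its difference was 1.69-fold (log2 0.75, SE 0.21, adjusted p = 0.0382), and its other probeset differed by 1.81-fold (log2 0.85, SE 0.17, adjusted p = 0.00834). With the recipient as a block, in the 8 hearts of this comparison, neither gene passed (Vcam1 1.31, SE 0.23, adjusted p = 0.104; Itgb1 0.75, SE 0.21, adjusted p = 0.158). Without native DA heart I13 or I9, Itgb1 did not pass either (adjusted p = 0.117 and 0.101). The share of all probesets with every isograft above every native DA heart was not counted.

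The remaining 4 genes did not pass for the surgical effect. Icam1 had a log2 fold change of 0.59 (SE 0.42, adjusted p = 0.405), with native DA hearts at 0.895, 1.13, 0.997 and 0.269. The last value, of I13, widened the spread. Itgam (-0.17, SE 0.21), Itgb7 (0.21, SE 0.31) and Selp (0.07, SE 0.51) were close to 0. Over the same samples 9 of 10 monocyte and macrophage markers were higher in isografts, while the T cell list had 0 of 11 higher and 1 lower, and the endothelial list 1 of 13 higher. Itgam, itself a gene of monocytes and macrophages, was thus not among the genes that passed with them. Its signals were weak in both groups, at 0.118 to 0.191 array medians in isografts and 0.145 to 0.236 in native DA hearts, which limits this comparison.

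The strain effect in heart (native BN against native DA hearts) left 0 of the 6 genes past the test, beside 2.94% of all probesets. At an unadjusted p under 0.05 there were 3 of the 6 (Icam1, Vcam1 and Selp), but the share of all probesets at that limit was not counted. Icam1 measured 1.61, 1.45, 1.11, 1.21 and 1.29 in native BN hearts, a log2 difference of 0.88 (SE 0.40, adjusted p = 0.338). Vcam1 measured 2.17, 1.59, 2.65, 1.26 and 1.58 (log2 0.71, SE 0.28, adjusted p = 0.262). Native DA heart I13 had the lowest value of its group for 4 of the 6 genes. Selp measured 0.281, 0.0721, 0.280, 0.434 and 0.0806 in native BN hearts and 0.517, 0.463, 0.198 and 0.444 in native DA hearts (log2 -1.07, SE 0.49, adjusted p = 0.343). Itgam, Itgb1 and Itgb7 differed by -0.14 (SE 0.20), -0.01 (SE 0.20) and 0.05 (SE 0.29).

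**Figure D2:**
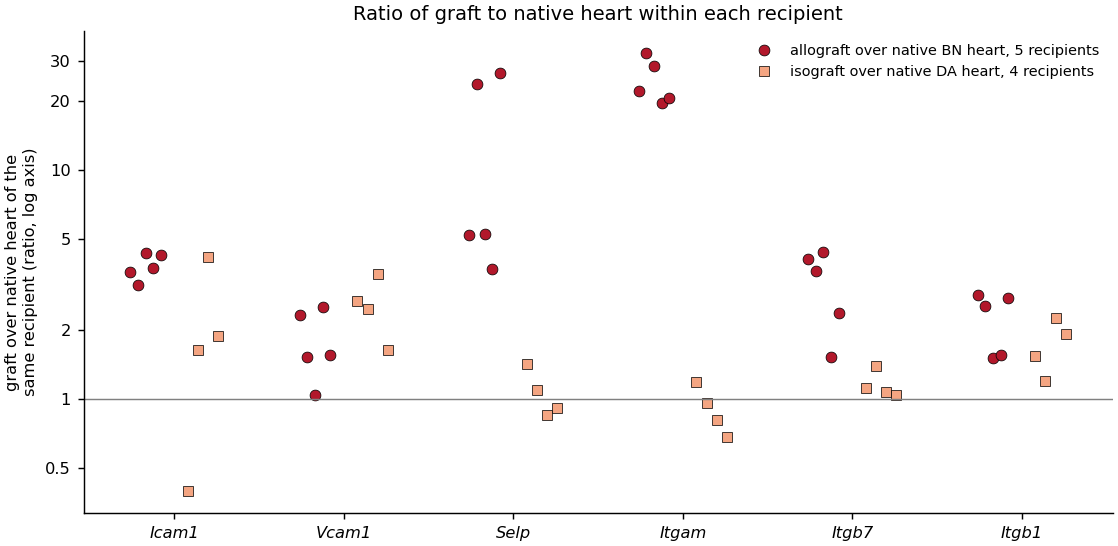
Ratio of the graft to the native heart of the same rat (log axis) for each gene, with 5 allograft recipients as circles and 4 isograft recipients as squares. By the brightest probeset, all 6 genes exceeded 1 in every allograft recipient, with Itgam at 19.7 to 32.3. In isograft recipients Vcam1, Itgb1 and Itgb7 exceeded 1 in all 4 rats. The share of all probesets with such ratios was not counted.

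Within recipients, the ratio of graft to native heart ordered the genes in a similar way. In the 5 allograft recipients the graft was higher for the brightest probeset of all 6 genes in every rat, although the allograft is a DA and the native heart a BN heart. Itgam ranged from 19.7 to 32.3, Icam1 from 3.16 to 4.35, Itgb7 from 1.53 to 4.38, Itgb1 from 1.51 to 2.86 and Vcam1 from 1.05 to 2.51. Selp ran from 3.70 to 26.5, with the highest ratios in A7 and A4, whose native hearts had the weakest Selp signals. The other Selp probeset (1369374_at) was higher in the graft in 1 of these 5 rats (0.0814 to 1.07). In this comparison (allografts against native BN hearts) 6 genes were higher and 3 were called, beside 23.1% and 5.41% of all probesets. In the 4 isograft recipients Vcam1 was higher in the graft in 4 rats (1.63 to 3.52), as were Itgb1 (1.20 to 2.27) and Itgb7 (1.05 to 1.40). Icam1 was higher in 3 (0.398 to 4.18), Selp in 2 (0.856 to 1.42) and Itgam in 1 (0.684 to 1.19). The share of all probesets with the graft higher in every rat was not counted for either kind of recipient.

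The order of the levels thus differed by gene. For Icam1, Itgam, Selp and Itgb7 the allografts stood above the other 3 groups with no overlap, as they did for 11% of all heart probesets, and the isografts and native hearts overlapped among themselves. For Itgb1 both kinds of graft lay above both kinds of native heart with no overlap, and the share of all probesets with this order was not counted. The allografts and isografts were neighbours that overlapped for Itgb1, as were the native hearts. For Vcam1 the order was allografts, isografts, native BN and native DA hearts, with overlap between all neighbours. Only the native DA hearts were separate from both grafts. Allografts against native DA hearts, hearts of 1 strain, gave 6 genes higher and 4 called, beside 22.7% and 6.02% of all probesets, with Vcam1 at 2.81-fold (log2 1.49, SE 0.28, adjusted p = 0.000381). Selp was among the called genes by its brightest probeset. Its other probeset (1369374_at), below the array median in all hearts, passed as lower in this comparison (log2 -1.39, SE 0.58, adjusted p = 0.0607).

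**Figure D3:**
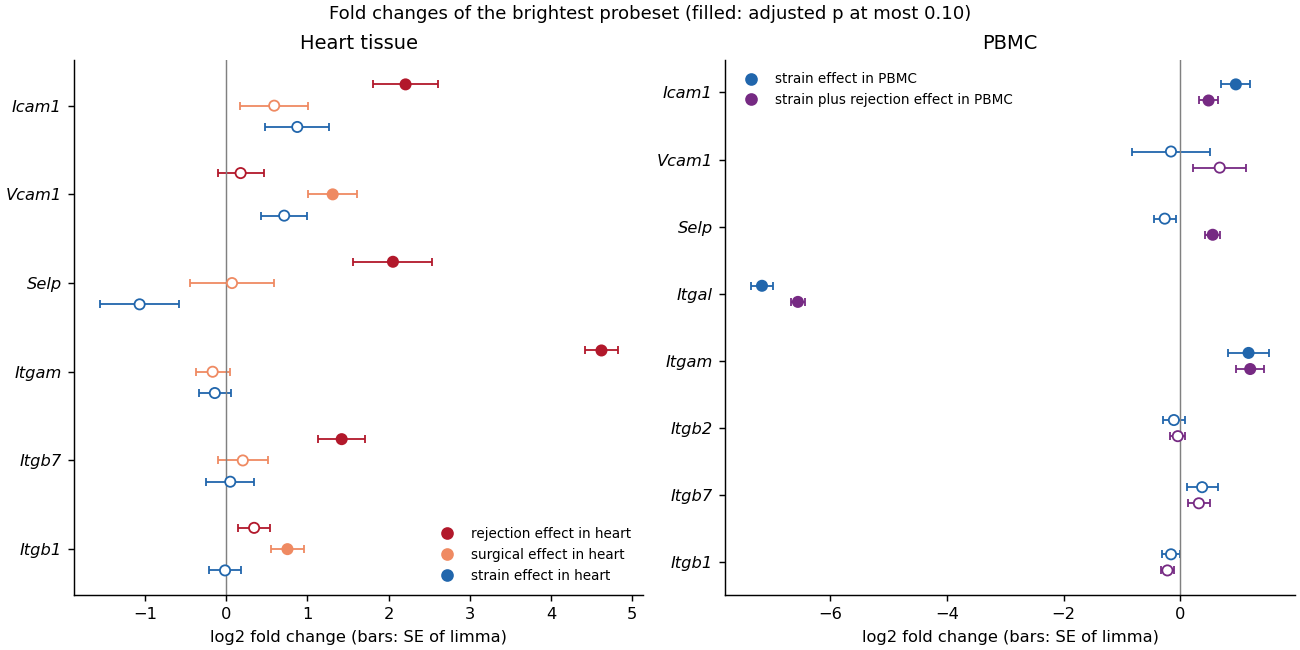
Log2 fold changes of the brightest probeset in heart (rejection, surgical and strain effects) and in PBMC (strain and strain plus rejection effects), with bars for the SE of limma and filled points for an adjusted p of 0.10 or less. In heart, Itgam, Icam1, Selp and Itgb7 passed for the rejection effect and Vcam1 and Itgb1 for the surgical effect, and Itgal lay at -7.17 and -6.56 in PBMC.

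Other adhesion genes of the heart array were counted by group, each from a list set up for this pathway. Of 10 measured other selectins, selectin ligands and their glycosyltransferases, 5 were higher and 1 lower in allografts (median log2 fold change 1.05). They include Cd44, the hyaluronan receptor that also binds E-selectin (5.05-fold, SE 0.26), Spn, the sialomucin CD43 of leukocytes (7.73-fold, SE 0.56) and Cd24 (8.55-fold, SE 0.61, from weak signals and not called). Of 24 genes of integrin activation and adhesion signalling, 14 were higher and 3 lower (median 0.75). Fermt3, kindlin-3, which activates beta integrins in blood cells, was 7.42-fold higher (SE 0.64), with 5.16 to 9.80 array medians in allografts and 0.696 to 1.31 in isografts. Apbb1ip, the RIAM adaptor between Rap1 and talin, was 6.04-fold higher (SE 0.49) and Coro1a, coronin of the leukocyte cytoskeleton, 11.7-fold (SE 0.22). The 3 genes had an adjusted p of at most 0.00172. Over the same hearts 7 of 8 markers of all leukocytes were higher, among which Coro1a is counted too.

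Matrix ligands of integrins moved both ways with rejection, 4 of 11 higher and 4 lower. Osteopontin (Spp1) was 19.3-fold higher (log2 4.27, SE 0.34), with 64.1 to 117 array medians in allografts and 2.29 to 10.0 in isografts. Fibronectin (Fn1), the matrix ligand of VLA-4, was 5.42-fold higher (2.44, SE 0.27), and vitronectin (Vtn) was 19.7-fold lower (-4.30, SE 0.42). Of 12 other immunoglobulin family ligands and junction proteins, 4 were higher and 1 lower. Pvr, the poliovirus receptor, was 4.26-fold higher (SE 0.29), Alcam 3.48-fold (SE 0.19) and Mcam 3.13-fold (SE 0.31). Of the other leukocyte integrin chains, Itgad, which pairs with beta-2 on macrophages, was 2.53-fold higher (SE 0.44, adjusted p = 0.0248), and Itgae, alpha-E, was at 0.649 times its isograft level (SE 0.24, adjusted p = 0.0556). The 8 matrix and platelet integrin chains had 0 higher and 2 lower, the muscle laminin receptor chain Itga7 (2.20-fold lower, SE 0.21) and the collagen receptor chain Itga1 (1.68-fold lower, SE 0.24). Heart muscle markers fell over the same hearts, 12 of 13.

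**Figure D4:**
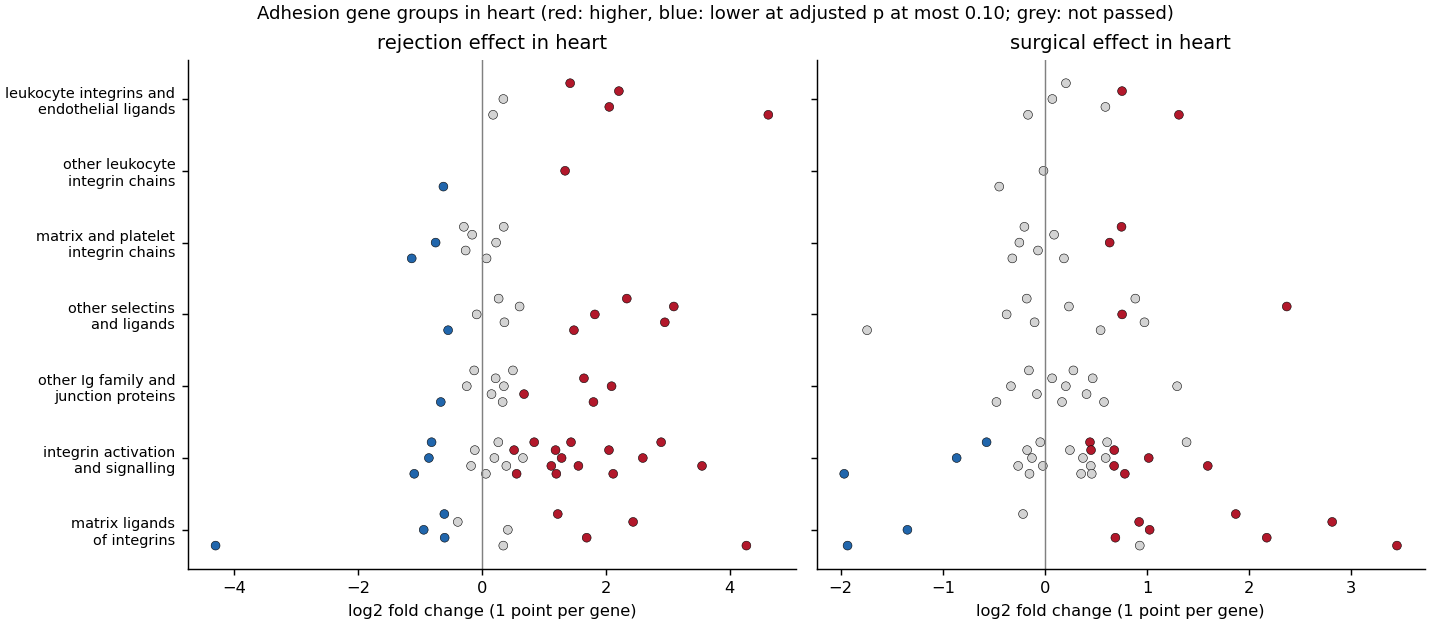
Log2 fold change of each measured gene (1 point) by adhesion gene group for the rejection effect (left) and the surgical effect (right) in heart. Red points were higher and blue points lower at an adjusted p of 0.10 or less, and grey points did not pass. In the activation and signalling group 14 of 24 genes were higher with rejection and 7 of 24 with surgery.

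For the surgical effect, matrix ligands had the highest share, 7 of 11 higher and 2 lower. Tenascin C (Tnc), a ligand of alpha-9 beta-1, was 10.9-fold higher in isografts (SE 0.59), the laminin chain Lama5 7.03-fold (SE 0.72) and Spp1 4.51-fold (SE 0.35). Of 24 activation and signalling genes 7 were higher and 3 lower, with Apbb1ip (3.02-fold, SE 0.52) and filamin A (Flna, 2.02-fold, SE 0.23) higher and talin 2 (Tln2, 3.91-fold, SE 0.49) lower. Of 8 matrix and platelet integrin chains Itga1 and Itgb5 were higher (1.68-fold and 1.55-fold). With each array left out, 0 to 2 of these chains were higher (2 in 1 of 8 fits), and 3 to 6 activation and signalling genes were. None of the 12 other immunoglobulin family and junction genes passed.

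E-selectin (Sele), the selectin that endothelium makes on activation, differed with surgery and strain. It measured 0.468 to 1.33 array medians in native BN hearts, 0.503 to 0.978 in allografts, 0.336 to 0.762 in isografts and 0.0441 to 0.293 in native DA hearts. The native DA hearts thus lay below all other hearts. In native BN hearts Sele was 7.49-fold above native DA hearts (log2 2.90, SE 0.44, adjusted p = 0.00187) and 5.16-fold higher in isografts than in native DA hearts (2.37, SE 0.46, adjusted p = 0.00649). Neither was called, since the signals were weak. For the strain effect, Cyth1 and Coro1a of the activation list were also higher in BN hearts (2.06-fold and 1.74-fold) and the junction protein Cd99 lower (1.75-fold), each with an adjusted p of at most 0.0818. Of the 67 listed genes of these groups, the other 63 did not pass. With each array left out, the activation list had 0 to 2 genes higher in BN hearts (2 in 3 of 9 fits). The junction list had 0 to 1 lower (1 in 5 of 9 fits).

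In PBMC, BN and DA rats were set apart by 1 integrin chain in particular. Itgal, the alpha chain of LFA-1, was called lower in BN in the strain effect (untransplanted BN against DA) and in the strain plus rejection effect (allograft recipients, BN, against isograft recipients, DA). Icam1 and Itgam were higher in both comparisons, and Selp in the second. Of the 8 genes, 2 were higher and 1 lower in the first comparison, beside 3.58% and 4.86% of all probesets, and 3 were higher and 1 lower in the second, beside 6.66% and 12% of all probesets. The call of Itgal stands beside 0.622% and 0.638% of probesets called lower. The median log2 fold change of the 8 genes was -0.13 and 0.41, and that of all probesets was -0.08 and -0.03.

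**Figure D5:**
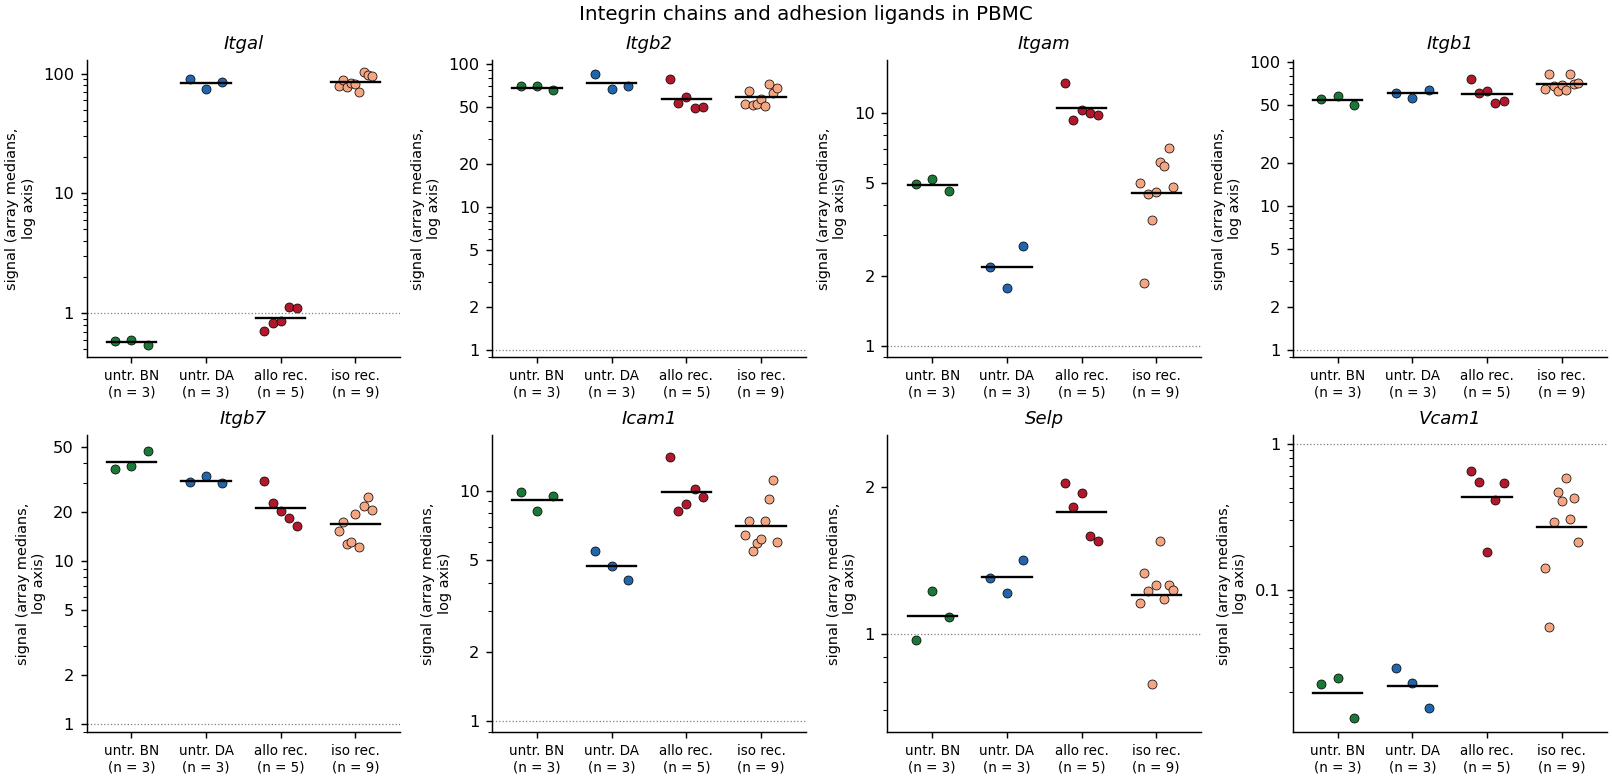
Signal of each gene in each PBMC sample (array medians, log axis) for untransplanted (untr.) BN and DA rats and for allograft (BN, allo rec.) and isograft (DA, iso rec.) recipients. Each point is 1 rat, the bar is the mean on the log scale and the dotted line is the array median. Itgal lay at 0.542 to 1.12 in all 8 BN rats and at 70.6 to 104 in all 12 DA rats.

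Itgal measured 0.581, 0.599 and 0.542 array medians in untransplanted BN rats and 90.5, 74.5 and 84.3 in untransplanted DA rats. The allograft recipients measured 0.703, 0.828, 0.853, 1.12 and 1.11 (QR3 to QR7). The 9 isograft recipients ran from 70.6 to 104 with a median of 83.1. The BN signal lay below the median of the array except in QR6 and QR7, and no BN rat came near a DA rat. Itgal was 144-fold lower in untransplanted BN rats (log2 -7.17, SE 0.18, adjusted p = 2.21e-14) and 94.2-fold lower in allograft recipients (-6.56, SE 0.13, adjusted p = 1.21e-16). The difference of both effects was 0.62 (SE 0.22, adjusted p = 0.423). Itgal is measured by 1 probeset, and a strain difference in how its probes hybridise was not tested here. The paper also measured Itgal RNA in PBMC by quantitative PCR. It reports lower levels in BN than in DA rats by that method too, transplanted or not.

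Itgb2, the chain that LFA-1 and Mac-1 share, was bright in all groups and did not pass in either comparison. It measured 69.6, 69.4 and 65.3 in untransplanted BN rats and 84.8, 66.5 and 69.7 in untransplanted DA rats. The allograft recipients measured 77.8, 53.2, 58.4, 49.0 and 50.2, and the isograft recipients ran from 50.4 to 72.1. The groups overlapped in both comparisons, with log2 fold changes of -0.11 (SE 0.18, adjusted p = 0.829) and -0.04 (SE 0.13, adjusted p = 0.886). The direction turned after quantile normalization, to 0.20 in each comparison, and passed in recipients (adjusted p = 0.0581). T cell markers, by contrast, fell in BN rats together with Itgal: 8 of 14 in the strain effect and 12 of 14 in recipients, with sums of 516 to 570 in untransplanted BN against 926 to 975 in DA rats and 229 to 397 against 374 to 629 in recipients. Their median log2 fold changes were -0.75 and -0.79. NK cell markers fell too, 5 of 6 and 3 of 6, and markers of all leukocytes fell in 1 of 8 and 2 of 8. Their part in the Itgal difference was not tested.

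Itgam and Icam1 were higher in BN rats. Itgam measured 4.95, 5.21 and 4.60 in untransplanted BN against 2.17, 1.77 and 2.68 in DA rats, 2.26-fold higher (log2 1.17, SE 0.35, adjusted p = 0.0551). It measured 13.4, 9.32, 10.3, 9.92 and 9.75 in allograft recipients, all above the 1.86 to 7.08 of the isograft recipients (median 4.81), 2.30-fold higher (1.20, SE 0.24, adjusted p = 0.00192). The groups did not overlap in either comparison, and the share of all probesets with such a separation was not counted. The first comparison did not pass without any 1 of 5 of the 6 untransplanted rats (adjusted p up to 0.177). Icam1 measured 9.91, 8.19 and 9.46 in untransplanted BN and 5.47, 4.70 and 4.09 in untransplanted DA rats. It was 1.94-fold higher (log2 0.96, SE 0.25, adjusted p = 0.0276), and it did not pass without BN1 (adjusted p = 0.102) or DA3 (0.101).

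In recipients the Icam1 groups overlapped, with 14.0, 8.17, 8.76, 10.2 and 9.41 in allograft recipients and 5.51 to 11.2 (median 6.45) in isograft recipients. The difference was 1.40-fold (log2 0.49, SE 0.17, adjusted p = 0.0638) and did not pass without QR3 (0.36, adjusted p = 0.173), QR6, QR7 or QR21 (adjusted p of 0.104 to 0.122 for the last 3) or with only these 2 groups in the fit (adjusted p = 0.111). QR3 had the highest value of the 5 allograft recipients for 7 of the 8 genes and the lowest for Itgal. Over the same samples, 5 of 12 monocyte and macrophage markers were higher in untransplanted BN rats and 8 of 12, with 1 lower, in allograft recipients. B cell markers were 1 of 5 and 3 of 5 higher, and neutrophil markers were 1 of 6 and 4 of 6 higher, with sums of 69.5 to 221 in allograft and 15.7 to 73.1 in isograft recipients, the highest in QR5. Red cell markers were 6 of 7 lower in allograft recipients, with sums of 148 to 233 against 219 to 537. Their part in Itgam and Icam1 was not tested.

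Selp, in blood a platelet gene, measured 2.04, 1.82, 1.94, 1.59 and 1.55 in allograft recipients and 0.791 to 1.55 (median 1.23) in isograft recipients. It was 1.47-fold higher (log2 0.56, SE 0.13, adjusted p = 0.00770), and it did not pass when both Selp probesets were averaged (0.20, adjusted p = 0.686). Untransplanted BN rats measured 0.975, 1.23 and 1.08 and DA rats 1.31, 1.22 and 1.42, and the difference did not pass (log2 -0.26, SE 0.19, adjusted p = 0.519). The difference of both effects was 0.82 (SE 0.23, adjusted p = 0.243). Platelet markers were lower in allograft recipients over the same samples, 7 of 8 lower and 1 higher, with sums of 280 to 426 against 428 to 546. The brightest Selp probeset and the platelet markers thus moved in opposite directions in recipients. The other Selp probeset (1369374_at), below the array median in all PBMC samples, did not pass (log2 -0.16, SE 0.50, adjusted p = 0.884). The part of platelets in the Selp signal was not tested.

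Itgb7, Itgb1 and Vcam1 did not pass in either PBMC comparison. Itgb7 measured 36.8, 38.3 and 47.4 in untransplanted BN and 30.4, 33.1 and 30.3 in untransplanted DA rats (log2 0.38, SE 0.27, adjusted p = 0.504), and 16.5 to 31.0 in allograft against 12.2 to 24.7 in isograft recipients (0.32, SE 0.18, adjusted p = 0.285). It passed in both after quantile normalization (0.62, adjusted p = 0.0448, and 0.48, adjusted p = 0.00848) and on the deposited scale (0.54, adjusted p = 0.0882, and 0.45, adjusted p = 0.0183). Itgb1 lay at 49.9 to 57.8 against 56.5 to 64.2 (-0.16, SE 0.16) and at 51.8 to 76.5 against 62.5 to 82.3 (-0.22, SE 0.11, adjusted p = 0.212). It passed as lower in allograft recipients without QR3 (-0.30, adjusted p = 0.0608). Vcam1 was among the dimmest probesets in untransplanted rats, at 0.0134 to 0.0292. It lay at 0.0556 to 0.650 in recipients, also below the array median, so its fold changes rest on weak signals. For the difference of both PBMC effects 0 of the 8 genes passed, beside 0.348% of all probesets. Of the 8, 2 had an unadjusted p under 0.05 (Itgal and Selp), and the share of all probesets at that limit was not counted.

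Other adhesion genes in PBMC included several integrin chains that differed in both comparisons. Of all probesets, 3.58% were higher and 4.86% lower in the strain effect, and 6.66% and 12% in recipients. Of 3 other leukocyte chains 1 was higher in the strain effect, and 1 was higher and 1 lower in recipients, the latter Itgae at 1.56-fold (SE 0.18). Itgax, alpha-X of dendritic cells and monocytes, was 1.75-fold and 1.91-fold higher in BN rats (SE 0.19 and 0.13), with 38.4 to 40.2 against 20.2 to 24.8 in untransplanted rats and 31.2 to 57.5 against 17.4 to 25.3 in recipients. Of 14 matrix and platelet integrin chains 2 were higher and 3 lower in the strain effect, and 1 was higher and 3 lower in recipients. With each array left out, 0 to 2 of these chains were higher in the strain effect (2 in 1 of 6 fits). Itgb5, a vitronectin receptor chain, was 3.46-fold and 7.51-fold higher (SE 0.56 and 0.38). Itga6, a laminin receptor chain also found on platelets, was 2.30-fold and 3.16-fold lower (SE 0.25 and 0.17), and Itga2b, the platelet fibrinogen receptor chain, was 3.24-fold lower in allograft recipients (SE 0.20). Of 11 matrix ligands 2 were higher and 1 lower, and then 1 higher and 1 lower, with Fn1 at 2.78-fold and 1.64-fold higher (SE 0.22 and 0.15). Of 28 activation and signalling genes 0 were higher and 2 lower in the strain effect, and 0 were higher and 6 lower in recipients. With each array left out, the lower genes numbered 0 to 1 in the strain effect and 4 to 11 in recipients. Skap1, an adaptor of LFA-1 activation in T cells, was 1.80-fold and 2.11-fold lower (SE 0.23 and 0.16). Of 12 other selectins and ligands 3 and 4 were higher and none lower, among them the fucosyltransferase Fut4 (1.64-fold and 1.61-fold) and the sialyltransferase St3gal4 (1.72-fold and 2.21-fold). Of 15 other immunoglobulin family and junction genes 1 was higher and 1 lower, and then 1 higher and 4 lower. The junction protein F11r (JAM-A), which binds LFA-1, was 1.72-fold and 2.94-fold lower (SE 0.26 and 0.18). Icam5, a ligand of LFA-1 known from neurons, was 2.86-fold higher in BN rats without a transplant (SE 0.27), and it was the only listed gene past the test for the difference of both effects (log2 -1.51, SE 0.32, adjusted p = 0.0752). Its untransplanted DA rats measured 0.224 to 0.414 array medians and all other rats 0.807 to 1.47. With each array left out, the immunoglobulin family and junction list kept 1 lower gene for this difference in 11 of 20 fits, and otherwise had 0. In the strain effect it kept 1 lower gene in 2 of 6 such fits.

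Probesets with the most similar pattern were ranked by the root mean square (RMS) difference in log2 signal from each gene after centring, over 18 hearts or 20 PBMC samples, as a description with no test. In heart, Itgam was closest to Fcgr3a, a macrophage and NK cell Fc receptor (RMS difference 0.38, where Itgam itself varied by 2.06 about its mean). Icam1 was closest to Ctsc, cathepsin C (0.43 against 1.20), Itgb7 to the MHC class II invariant chain Cd74 (0.32 against 0.80) and Selp to Tbxas1, thromboxane synthase (0.68 against 1.39). Itgb1 was closest to Skil (0.16 against 0.55) and Vcam1 to Glt8d1 (0.29 against 0.69). In PBMC, Itgal was closest to Serpinb11 (0.90 against 3.34) and to the class I gene RT1-A (1.11). Itgb2 was closest to Prr13 (0.09 against 0.23), Itgam to Sulf2 (0.31 against 0.81) and Icam1 to Nod1, an innate immune receptor (0.14 against 0.44). These points share groups and arrays, so likeness follows the group differences given above.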

How the data were processed

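RNA of 18 hearts was hybridised to RAE230A arrays and RNA of 20 PBMC samples to RAE230 2.0 arrays, 1 array per sample. The deposited values are linear MAS5 signal intensities per probeset, which the authors scaled array by array without taking logarithms, and the MAS5 version is not given in the sources used here. After 57 control probesets were dropped from each table, every array was divided by its median (38.3 to 50.8 in heart, 20.2 to 36.8 in PBMC) and log2 was taken. A single gene symbol was annotated to 12783 heart and 20826 PBMC probesets, several symbols to 312 and 436, and no symbol to 2771 and 9780.

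A model with 4 group means per tissue was fitted with limma 3.58.1 in R 4.3.3, with Benjamini-Hochberg adjustment over all probesets of the array, and was tested on simulated data. Both graft comparisons within DA hearts share the isografts, and the native DA hearts enter several comparisons, so these were not compared with each other. All 9 genes are named, and from each other adhesion list up to 3 genes per comparison with the largest fold change among those that passed. The genes and lists were chosen with earlier results of these data known.

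Native heart and graft of the same number came from the same recipient. The deviations of such pairs from their group means correlated at -0.04 to 0.12 over all probesets in 9 recipients, 1 of them above 0.1, and fits with the recipient as a block were alternatives. Other alternatives were quantile normalization, the deposited scale, 0.25 array medians added before log2, a filter on dim probesets, a trended robust fit, the middle of a gene's probesets, fits of only 2 groups, other signal criteria and each array left out. Precision is limited by the number of arrays.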

Additional observations from a re-analysis of the deposited data

Results flagged for a closer look

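Of 52 groups of 4 to 9 samples checked per probeset, 5 had a lowest or highest sample set apart from the rest by Dixon's 95% limit, and chance alone flags about 1 in 20 groups. Native DA heart I13 gave the lowest Icam1 signal, 0.269 array medians where the other 3 lay at 0.895 to 1.13, and the lowest signal of the dimmer Itgb1 probeset (1387346_at), 2.79 where the others lay at 3.18 to 3.26. Native DA heart I12 gave a Selp signal of 0.198, with the others at 0.444 to 0.517. In PBMC, allograft recipient QR3 gave the highest Itgam signal, 13.4 with the others at 9.32 to 10.3. Isograft recipient QR14 gave the lowest Selp signal, 0.791 with the others at 1.16 to 1.55.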

How the results depend on the processing

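The rejection calls of Itgam and Icam1, the pass of Itgb7 and the miss of Vcam1 in heart, and both calls of Itgal in PBMC kept their direction and side of the threshold in the alternatives run, except that Vcam1 turned to -0.0036 without allograft A3. The number of genes higher with surgery fell from 2 to 0 with the recipient as a fixed replicate block. With the recipient as a random block the correlation was 0.0575. It was 1 to 2 with each array left out (1 without native DA heart I13 or I9). The genes higher for the PBMC strain effect fell from 2 to between 0 and 1 with each array left out, 0 without BN1 and 1 without each of the other 5 rats. The genes higher in allograft recipients rose from 3 to 5 with quantile normalization, and the genes lower numbered 1 to 2, 2 without QR3. Selp called with rejection was lost at the 65th percentile criterion, which left 2 of 3 calls.

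Scaling moved the PBMC comparisons most. Of the probesets that passed, 42.4% were higher in BN for the strain effect, against 53.6% with quantile normalization and 60.2% on the deposited scale, and in recipients 35.7% against 49.5% and 55.6%. The deposited scale moved the median log2 difference of all probesets from -0.08 to 0.08 and from -0.03 to 0.10. With quantile normalization the direction turned for Itgb1 (strain effect in heart 0.041, in PBMC 0.11, in recipients 0.041), Itgb2 (0.20 in both PBMC comparisons) and the difference of both PBMC effects for Itgal (-0.13) and Itgb2 (-0.0049). On the deposited scale it turned for Itgb1 (heart strain effect 0.024, PBMC strain effect 0.0082), Itgb2 (0.057 and 0.092), Vcam1 (PBMC strain effect 0.0072) and Itgam (difference of both effects -0.0039). With the middle of the probesets it turned for Itgb1 (heart strain effect 0.024) and Selp (surgical effect -0.20, PBMC strain effect 0.36, difference of both effects -0.16). Of these turned values Itgb2 in recipients with quantile normalization passed the test, and the cause was not tested.

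With each array left out the log2 difference spanned 0 for Vcam1 with rejection (-0.0036 to 0.30), Selp with surgery (-0.24 to 0.37), Itgb1 and Itgb7 for the heart strain effect (-0.16 to 0.14 and -0.14 to 0.26), Vcam1 for the PBMC strain effect (-0.40 to 0.12) and Itgb2 in recipients (-0.15 to 0.014). It did so for the difference of both PBMC effects for Itgam (-0.13 to 0.18), Itgb2 (-0.046 to 0.14) and Itgb7 (-0.19 to 0.056). None of these passed the test in any such fit. Signals under the array median, as for Vcam1 in PBMC and Selp and Itgam in native hearts and isografts, limit the fold changes that rest on them.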

Other observations

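Some genes lay at different levels in PBMC of transplanted and untransplanted rats, groups that were also processed apart, so that transplantation and batch cannot be told apart and no test was made. Itgb7 lay between 30.3 and 47.4 array medians in the 6 untransplanted rats and between 12.2 and 31.0 in the 14 recipients. Vcam1 lay between 0.0134 and 0.0292 in untransplanted rats and between 0.0556 and 0.650 in recipients. Itgam lay between 1.77 and 2.68 in untransplanted DA rats and between 1.86 and 7.08 in DA recipients, and between 4.60 and 5.21 against 9.32 to 13.4 in BN rats. Itgal lay between 0.542 and 0.599 in untransplanted BN rats and between 0.703 and 1.12 in BN recipients, and between 74.5 and 90.5 against 70.6 to 104 in DA rats.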
